A study of Mus musculus with 8 samples.

Results

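The transcripts described here encode proteins stored in, or made for, the granules of eosinophils, mast cells, basophils and cytotoxic lymphocytes. They are the eosinophil genes Prg2, Prg3 and Epx, the mast cell and basophil genes Cpa3, Mcpt8 and Hdc, and the cytotoxic genes Prf1 and Gzmb. Every probe that the array's annotation gives to these symbols was used, which made 12 probes for 8 genes out of 45281 probes and 19057 named genes. The genes were chosen by their role together with levels and knockdown differences already seen on these same arrays, so their own differences are given as a description, without p-values. Their calls in the fit over all probes are counted beside the share called on the whole array, and calls lost under alternatives are listed. Neither the counts nor the calls support anything.

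The cells carried the MLL-AF9 oncogene, were called leukaemia stem cells by their gate, and came from the C57BL/6 Actin-dsRed background. They were sorted from the bone marrow of leukaemic mice after serial transplantation, on dsRed and CD34, on high staining for c-kit and for Fc gamma receptor II, and on low Hoechst staining. Cells carried either a control shRNA (Luc, 3 arrays), the Itgb3-17 shRNA (3 arrays) or the Itgb3-20 shRNA (2 arrays, labelled replicates 4 and 5), and both Itgb3 hairpins target the integrin beta 3 subunit. The oncogene, the strain and the gate were shared by all groups, and the Luc arrays were the control of both hairpins. Nothing in the labels ties an array to a mouse of its own, so errors and p-values cover the spread between these samples only, and part of it may be technical.

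Granulocytes and cytotoxic lymphocytes pack preformed effector proteins into secretory granules built on the lysosomal pathway, where basic proteins and proteases are held on the proteoglycan serglycin until release. Major basic protein and eosinophil peroxidase fill the specific granules of eosinophils, carboxypeptidase A3, chymase-like proteases and histamine those of mast cells and basophils, and perforin with granzymes those of cytotoxic T and NK cells. Leukaemias driven by MLL-AF9 are mostly myeloid and can arise from granulocyte and macrophage progenitors. At that stage other myeloid granule genes are normally first transcribed.

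Levels are log2 values after background correction and quantile normalization, and a probe is called above background on an array where its deposited detection p-value was under 0.05. Of the 12 probes, 4 were above background on every array (Prg2, both Hdc probes and the first Prf1 probe), 5 on some arrays and 3 on none. The 7 probes above background on at least 2 arrays entered the fit, and they covered 6 of the 8 genes. Prg3 and Gzmb have 1 probe each and were not above background on any array. Cpa3 and Mcpt8 entered through the knockdown arrays alone, and Epx through the 3 control arrays and 1 Itgb3-17 array. The median standard error of a knockdown difference over all probes fitted was 0.154 on the log2 scale.

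**Figure D1:**
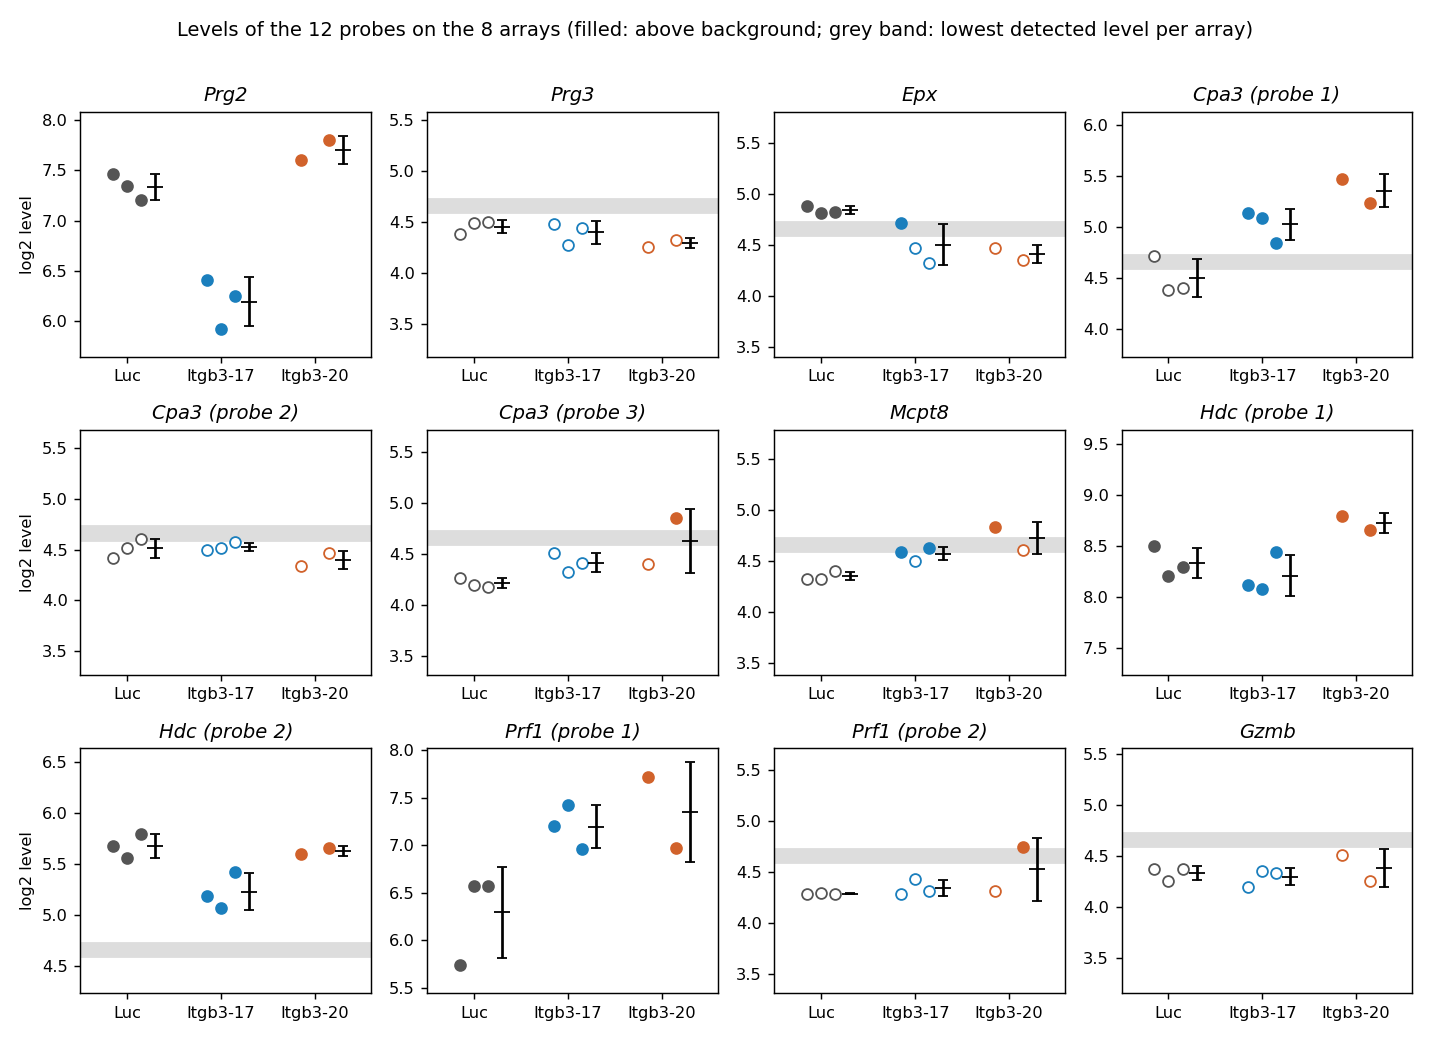
Log2 level of each of the 12 probes on the 8 arrays (vertical axis, log2; horizontal axis, group), with the group mean and SD as black bars (n = 3, 3 and 2). Filled points were above background, open points were not, and the grey band spans the lowest detected level of the arrays; Prg2 is low on the 3 Itgb3-17 arrays, and the first probes of Cpa3 and Prf1 are higher on all 5 knockdown arrays than on the controls.

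The promoters of Prf1, Cpa3, Hdc and Epx are shown because probes of these genes gave the levels above background that the results describe. RefSeq windows on GRCm38.p6, from 250 bases before to 50 bases after the annotated start, matched 7 of the 8 genes, all but Prg2, and 4 are printed 5' to 3' on the sense strand. Capitals mark matches to the motifs GATAA (GATA factors), GGAAGT (ETS factors), TGTGGT (RUNX factors), CATGTG (an E-box of the kind MITF binds) and TATAAA, the last on the sense strand only and the others on both strands. The Prf1 window is chr10:61297586-61297885 (+), the Cpa3 window chr3:20242132-20242431 (-), the Hdc window chr2:126618629-126618928 (-) and the Epx window chr11:87875487-87875786 (-).
Prf1: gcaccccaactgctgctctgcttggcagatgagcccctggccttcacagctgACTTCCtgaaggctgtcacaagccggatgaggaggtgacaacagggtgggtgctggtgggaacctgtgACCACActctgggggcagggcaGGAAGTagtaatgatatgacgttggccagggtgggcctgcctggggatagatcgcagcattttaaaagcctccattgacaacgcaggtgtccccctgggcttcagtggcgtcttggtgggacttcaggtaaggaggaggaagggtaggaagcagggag
Cpa3: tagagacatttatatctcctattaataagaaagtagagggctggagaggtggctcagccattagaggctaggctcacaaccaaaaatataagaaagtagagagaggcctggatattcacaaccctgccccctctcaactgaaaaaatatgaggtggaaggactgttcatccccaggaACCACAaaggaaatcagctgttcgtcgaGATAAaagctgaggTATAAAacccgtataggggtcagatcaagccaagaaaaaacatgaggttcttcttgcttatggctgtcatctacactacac
Hdc: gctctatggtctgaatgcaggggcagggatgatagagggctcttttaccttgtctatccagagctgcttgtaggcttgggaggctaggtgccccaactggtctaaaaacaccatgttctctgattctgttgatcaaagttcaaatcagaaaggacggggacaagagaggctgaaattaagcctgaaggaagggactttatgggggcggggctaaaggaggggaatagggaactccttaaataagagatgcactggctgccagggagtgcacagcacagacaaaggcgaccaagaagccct
Epx: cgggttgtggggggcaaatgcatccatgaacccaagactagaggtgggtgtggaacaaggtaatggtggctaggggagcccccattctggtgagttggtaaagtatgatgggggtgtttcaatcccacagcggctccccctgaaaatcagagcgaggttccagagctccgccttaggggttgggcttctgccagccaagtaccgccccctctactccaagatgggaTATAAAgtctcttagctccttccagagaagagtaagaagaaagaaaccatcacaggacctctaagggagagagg

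The Prf1 window held 2 ETS matches, whose first bases lie at -198 and -108 from the start, and a RUNX match at -130. The Cpa3 window held a RUNX match at -73, a GATA match at -45 and a TATAAA box at -31. In the Epx window a TATAAA box at -24 was the only match, and the Hdc window held none of the motifs searched. Among the windows not printed, Prg3 had 2 GATA, 1 ETS, 1 RUNX and 2 E-box matches, while Mcpt8 and Gzmb had 2 RUNX matches each, and no match overlapped another. The RUNX letters were in 5 of the 7 windows and in 16.8% of the 32851 promoter windows of the RefSeq table. GATAA was in 2 of 7 against 25.4% of all windows, GGAAGT in 2 against 23.8%, CATGTG in 1 against 14.2%, TATAAA in 2 against 8.32%, and the C/EBP letters TTGCNNAA in 0 against 10.8%. A match is a run of letters and not a site shown to be bound.

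**Figure D2:**
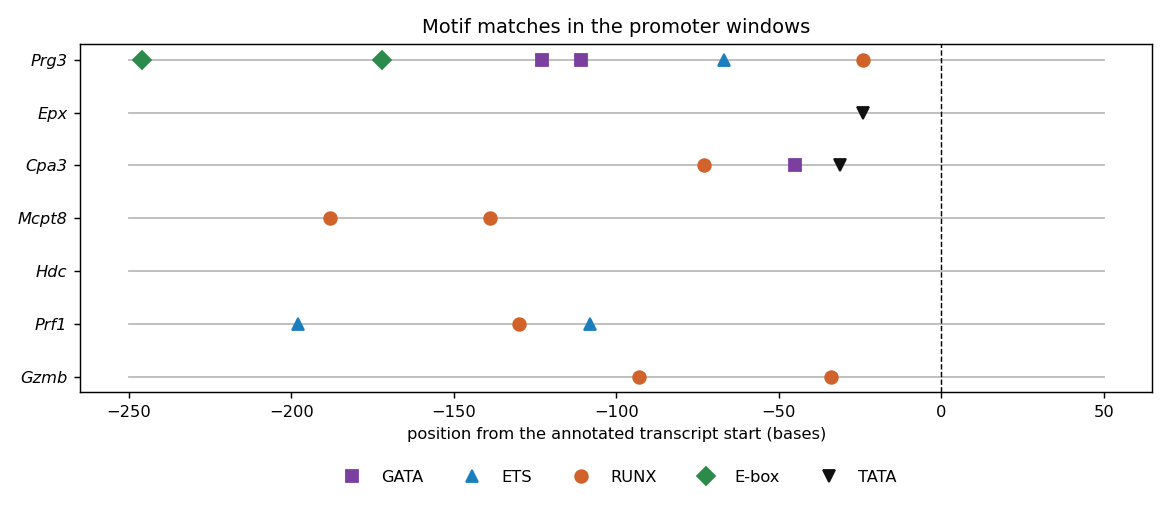
Positions of motif matches in the 7 promoter windows, with distance from the annotated transcript start in bases on the horizontal axis and genes on the vertical axis. The symbols stand for the motif families and the dashed line for the start; Epx and Cpa3 have a TATAAA box just before the start, and Hdc has no match.

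Among the eosinophil genes Prg2 separated the hairpins. Prg2 encodes major basic protein, the cationic core protein of the eosinophil granule. Its level was 7.46, 7.35 and 7.20 on Luc replicates 1 to 3, 6.41, 5.93 and 6.25 on Itgb3-17 replicates 1 to 3, and 7.60 and 7.80 on Itgb3-20 replicates 4 and 5. All Itgb3-17 arrays lay below all controls and both Itgb3-20 arrays above them, and no groups overlapped. The group means ordered Itgb3-17 (6.19 ± 0.24, SD, n = 3), control (7.34 ± 0.13, n = 3) and Itgb3-20 (7.70 ± 0.14, n = 2). The difference from control was -1.14 ± 0.17 (SE) with Itgb3-17 (a fold of 0.453), at percentile 0.398 of the 13315 differences fitted. With Itgb3-20 it was 0.36 ± 0.19, a fold of 1.29, at percentile 83.4, and was not called. Itgb3-20 minus Itgb3-17 was 1.51 ± 0.19, a fold of 2.84. Averaged over the hairpins the difference from control was -0.39 ± 0.15, a mean of opposite signs. In bulk RNA of this kind, fewer cells of a type and less RNA per cell cannot be told apart.

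The scale of the Prg2 difference depended on the normalization but its order did not. With median scaling in place of quantile normalization, which moved the median of all probes by 0.21 for Itgb3-17 and 0.09 for Itgb3-20 against control, Prg2 stood at -0.70 with Itgb3-17 and 0.53 with Itgb3-20, or -0.90 and 0.44 relative to those medians. On the raw linear signal the Luc arrays read 218, 222 and 217, the Itgb3-17 arrays 192, 127 and 182, and the Itgb3-20 arrays 240 and 331, which is the same order without overlap.

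Prg3, which encodes the homologous major basic protein 2, was not above background on any array, with levels between 4.26 and 4.50. The RefSeq annotation places Prg3 next to Prg2 with 0 protein-coding genes between them. Epx, the haem peroxidase of the eosinophil granule, was close to the detection limit. Its level was 4.89, 4.81 and 4.82 on the Luc arrays, 4.72, 4.47 and 4.32 on the Itgb3-17 arrays, and 4.47 and 4.35 on the Itgb3-20 arrays. All 5 knockdown arrays were below all controls, and the probe was above background on 3 of 3 control, 1 of 3 Itgb3-17 and 0 of 2 Itgb3-20 arrays. On the raw linear signal Itgb3-17 replicate 1 (107) lay above Luc replicate 3 (105). The means were 4.84 ± 0.04 (SD, n = 3), 4.50 ± 0.20 (n = 3) and 4.41 ± 0.09 (n = 2), and the hairpin groups overlapped. Knockdown minus control was -0.38 ± 0.14 (SE), with -0.34 ± 0.16 for Itgb3-17 and -0.43 ± 0.17 for Itgb3-20. Because Itgb3-20 arrays gave only a bound, Epx was at least 1.12-fold higher in control than with Itgb3-20 under this processing. The Itgb3-20 difference was not called, and it shrank to -0.12 in the alternative where it was smallest. For such bounds the dim group's level on each array is the lowest detected level, or the probe's own where that is higher.

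Of 17 further eosinophil genes with a probe, 5 entered the fit and 0 were called in any comparison, and their median knockdown difference was -0.158 against 0.0210 over all genes. In the limma fit 1 of the 5, Ear6, had an unadjusted p under 0.05 for knockdown against control. It encodes an eosinophil-associated ribonuclease, was above background on 2 control arrays only, and differed by -0.32 ± 0.15 (SE, adjusted p = 0.163, limma). Ccr3, the eotaxin receptor, was above background on 2 arrays and differed by -0.02 (adjusted p = 0.957), and Il5ra, the interleukin 5 receptor of eosinophils, on 0. The summed linear level of the list was 526 to 552 on Luc, 518 to 524 on Itgb3-17 and 509 to 548 on Itgb3-20 arrays, and 7 of the 17 genes were not above background on any array.

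Among the mast cell and basophil genes, Cpa3 was above background on every knockdown array and on no control. Cpa3 encodes carboxypeptidase A3, a metalloprotease of mast cell granules that is also transcribed in mast cell and basophil progenitors. The level of its first probe was 4.72, 4.38 and 4.40 on the Luc arrays, 5.14, 5.09 and 4.85 on the Itgb3-17 arrays, and 5.47 and 5.24 on the Itgb3-20 arrays. No groups overlapped, with control lowest (4.50 ± 0.19, SD, n = 3), then Itgb3-17 (5.03 ± 0.16, n = 3) and Itgb3-20 (5.36 ± 0.16, n = 2). On the raw linear signal the groups did overlap. Itgb3-17 replicate 2 read 105 against 110 on Luc replicate 1, and Itgb3-17 replicate 1 read 122 against 121 on Itgb3-20 replicate 4. Knockdown minus control was 0.69 ± 0.15 (SE). Taken from the plain mean of the 5 knockdown arrays (5.16), the level was at least 1.39-fold higher with knockdown. The bounds were at least 1.27-fold for Itgb3-17 and at least 1.59-fold for Itgb3-20. All of these bounds hold for this background correction and normalization only and carry no error. Knockdown minus control was 0.19 with no background correction and 0.29 with the authors' processed values. The hairpins differed from each other by 0.33 ± 0.18. Of the other Cpa3 probes, 1 was not above background on any array (knockdown minus control -0.05), and the other was above background on Itgb3-20 replicate 5 alone (0.31), so the pattern rests on 1 of 3 probes. Its level lay close to the lowest detected level of the arrays, which was 4.59 to 4.73.

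Mcpt8 encodes a serine protease that marks mouse basophils. Its level was 4.33, 4.33 and 4.40 on the Luc arrays, 4.59, 4.50 and 4.63 on the Itgb3-17 arrays, and 4.84 and 4.62 on the Itgb3-20 arrays. The knockdown arrays were all above the controls, but the probe was above background on only 2 of 3 Itgb3-17 arrays and 1 of 2 Itgb3-20 arrays, and the hairpins overlapped. On the raw linear signal Itgb3-17 replicate 2 (94.3) lay below all controls (99.9, 99.2 and 95.7). Knockdown minus control was 0.30 ± 0.13 (SE), for which no bound above 1 could be given. Itgb3-20 alone gave no bound either, since its mean includes replicate 5 (4.62), which was not above background.

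Hdc encodes histidine decarboxylase, which makes histamine, and it was well above background on all arrays with both probes. The first probe read 8.50, 8.21 and 8.30 on the Luc arrays, 8.11, 8.07 and 8.44 on the Itgb3-17 arrays, and 8.80 and 8.66 on the Itgb3-20 arrays. Itgb3-20 was above every other array, while Itgb3-17 and control overlapped. The means were 8.21 ± 0.20 (SD, n = 3) with Itgb3-17, 8.33 ± 0.15 (n = 3) in control and 8.73 ± 0.10 (n = 2) with Itgb3-20. The difference from control was -0.12 ± 0.16 (SE) with Itgb3-17 and 0.39 ± 0.18 with Itgb3-20, and the hairpins differed by 0.52 ± 0.18. On the raw linear signal this probe read 357, 338 and 378 on Luc and 449, 293 and 541 on Itgb3-17 arrays. The Itgb3-20 arrays read 444 and 549, so there the hairpins overlapped.

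The second Hdc probe read 5.68, 5.57 and 5.80 on the Luc arrays, 5.19, 5.07 and 5.43 on the Itgb3-17 arrays, and 5.60 and 5.66 on the Itgb3-20 arrays. Here Itgb3-17 was below every other array, while Itgb3-20 and control overlapped. The difference from control was -0.45 ± 0.16 (SE) with Itgb3-17 and -0.05 ± 0.18 with Itgb3-20, and the hairpins differed by 0.40 ± 0.18. The probes thus shared the order of the hairpins and not the group that stood apart from control. With median scaling the Itgb3-17 difference of the first probe turned to 0.29 (0.08 relative to the median of all probes). For the second probe the Itgb3-17 difference shrank to -0.08 (-0.28 relative to that median) and the hairpin difference to 0.20 (0.33). Its knockdown difference went from -0.25 to 0.02 (-0.13 relative to that median). On the raw linear signal the second probe read 126, 126 and 130 on Luc and 124, 105 and 137 on Itgb3-17 arrays. The Itgb3-20 arrays read 124 and 139, and all groups overlapped.

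Defining genes of mature mast cells were not detected beside these. Fcer1a and Ms4a2, subunits of the high-affinity IgE receptor, the chymase Cma1, Mcpt4, the tryptases Tpsb2 and Tpsab1, and the monoamine transporter Slc18a2 were above background on 0 of 8 arrays. Of 31 mast cell and basophil genes with a probe, 16 were not above background on any array and 8 entered the fit. The call of Ccl4 was the sole one for knockdown against control, 1 higher and 0 lower, against 9.46% higher and 8.25% lower of the 8189 genes fitted, and the list's median was 0.135. Ccl4, a chemokine that myeloid cells also make, rose by 0.71 ± 0.18 (SE, adjusted p = 0.0127, limma), lost its call without Luc replicate 3 (adjusted p = 0.0728), and its other probe gave 0.20 (adjusted p = 0.445).

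The regulators and the matrix of these granules were measured too. Gata2, a transcription factor of mast cells and early progenitors, averaged 5.55 ± 0.09 (SD, n = 3) in control, 5.05 ± 0.0045 (n = 3) with Itgb3-17 and 5.74 ± 0.36 (n = 2) with Itgb3-20. Its difference was -0.50 with Itgb3-17 (adjusted p = 0.054) and 0.19 with Itgb3-20 (adjusted p = 0.566), neither past the threshold of 0.05. Mitf, a mast cell transcription factor, was above background on 2 arrays and Gata1, the eosinophil and mast cell GATA factor, on 0, as was Cebpa, a myeloid transcription factor. Srgn, the serglycin core protein, differed by 0.02 (adjusted p = 0.951). The summed linear level of the mast cell and basophil list was 1513 to 1578 on Luc, 1463 to 1498 on Itgb3-17 and 1608 to 1636 on Itgb3-20 arrays. Ccl9, a chemokine of that list that other myeloid cells also make, averaged 8.94, 8.66 and 8.96 in these groups. The Prg2 and first Hdc probes had the same order of groups, and the part of this list in them was not tested.

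**Figure D3:**
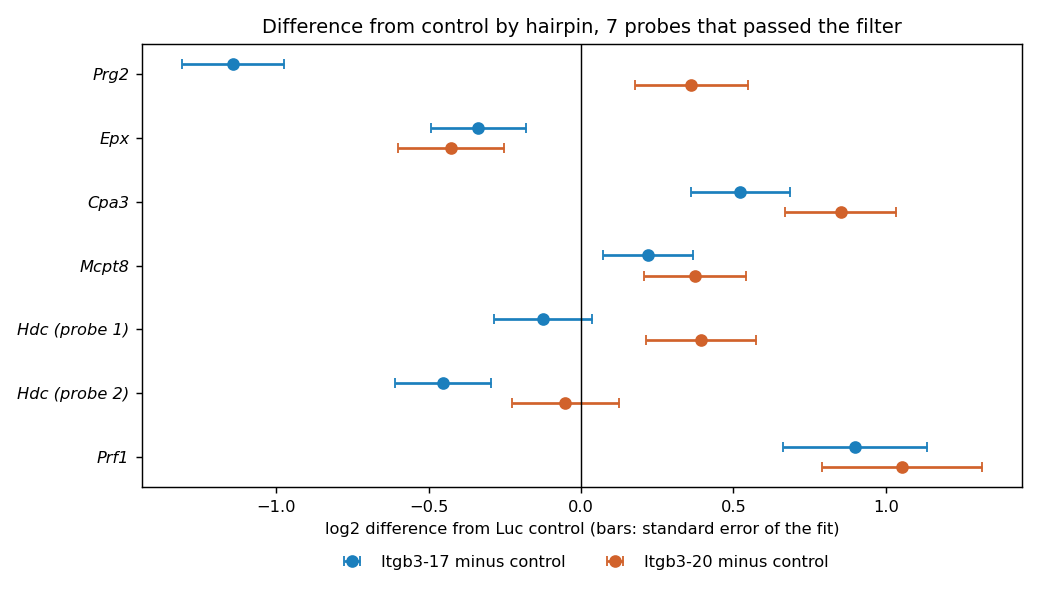
Log2 difference from the Luc control for each of the 7 probes that entered the fit, with Itgb3-17 in blue and Itgb3-20 in orange (points) and the standard error of the fit as bars. Prg2 lies at -1.14 with Itgb3-17 and 0.36 with Itgb3-20, while Cpa3 and Prf1 lie to the right of 0 with both hairpins.

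Of the cytotoxic pair, Prf1 was above background on all arrays with its first probe only, and Gzmb on none. Prf1 encodes perforin, which opens pores in the target membrane and lets granzymes in. The level of its first probe was 5.74, 6.57 and 6.57 on the Luc arrays, 7.20, 7.42 and 6.96 on the Itgb3-17 arrays, and 7.72 and 6.97 on the Itgb3-20 arrays. All knockdown arrays were above all controls, Luc replicate 1 was the lowest of the controls, and the hairpins overlapped. The means were 6.29 ± 0.48 (SD, n = 3), 7.19 ± 0.23 (n = 3) and 7.35 ± 0.53 (n = 2). Knockdown minus control was 0.98 ± 0.21 (SE), a fold of 1.97 and percentile 99.4 of the differences fitted, with 0.90 ± 0.24 for Itgb3-17 and 1.05 ± 0.26 for Itgb3-20. Itgb3-20 minus Itgb3-17 was 0.15 ± 0.26. Without Luc replicate 1 the Prf1 differences were 0.70 for knockdown, 0.62 for Itgb3-17 and 0.78 for Itgb3-20, and without Itgb3-20 replicate 4 the Itgb3-20 difference was 0.68.

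On the raw linear signal the first Prf1 probe read 127, 165 and 166 on Luc, 278, 215 and 249 on Itgb3-17, and 253 and 229 on Itgb3-20 arrays. The second Prf1 probe was above background on Itgb3-20 replicate 5 alone and gave a knockdown difference of 0.15, so the pattern rests on the first probe. Gzmb, the granzyme that cleaves caspases in target cells, was not above background on any array, with levels of 4.20 to 4.51. Gzma had no probe listed under that symbol. Serpinb9, the inhibitor of granzyme B in mouse and human cells, was above background on 0 arrays.

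Genes that define cytotoxic lymphocytes were mostly not detected. Of 32 further cytotoxic genes with a probe, 21 were not above background on any array, 7 entered the fit and 0 were called for knockdown against control in the limma fit, with 0 at an unadjusted p under 0.05. Their median was -0.0144. The lowest p was that of Gzmm, granzyme M, at 0.27 ± 0.15 (SE, adjusted p = 0.258, limma), above background on 0 of 3 control, 3 of 3 Itgb3-17 and 1 of 2 Itgb3-20 arrays. The NK cell genes Ncr1, Klrb1c, Klrk1, Eomes and Tbx21 and the T cell genes Cd3d, Cd3g and Cd8a were above background on 0 of 8 arrays. Other T cell genes were detected, with Cd8b1 and Bcl11b each having a probe above background on all 8 arrays, Cd247 and Zap70 on 4 and Cd3e on 2. Among other NK cell genes, Klrd1 was above background on 0 of 3 control, 2 of 3 Itgb3-17 and 0 of 2 Itgb3-20 arrays. Cd160 was above background on 2 arrays, and Klra7 probes on at most 1. The granule protein gene Nkg7 and the cystatin Cst7 were above background on all arrays and each differed by -0.16 (adjusted p = 0.49 and 0.528). The summed level of the cytotoxic list was 1450 to 1500 on Luc, 1356 to 1490 on Itgb3-17 and 1434 to 1482 on Itgb3-20 arrays. Many of its probes add only background, and Nkg7, its brightest gene in the fit (8.57 in control), is also in the primary granule list. The sum therefore cannot show whether cytotoxic cells changed. The T cell list summed to 1685 to 2011, 1782 to 1859 and 2108 to 2304, with 10 of 16 genes not above background on any array, and the NK cell list to 869 to 918, 799 to 868 and 837 to 907, with 9 of 15. Cd8b1, the brightest gene of the T cell list in the fit, averaged 10.1, 10.1 and 10.5 in these groups, and Nkg7 is also in the NK cell list.

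Counted against the whole array, 2 of the 7 member probes were called higher and 0 lower for knockdown minus control (Cpa3 and Prf1), where 16.8% of 13315 probes were called, 8.93% higher and 7.84% lower. With Itgb3-17 the same probes were higher and Prg2 lower, against 12.9% called (7.22% higher and 5.69% lower). With Itgb3-20 the count was 2 higher and 0 lower, against 11% (5.71% and 5.27%). Between the hairpins 1 probe, Prg2, was called higher with Itgb3-20, against 0.533% (0.248% and 0.285%). These contrasts were used in choosing the genes, so nothing is read from the counts. Under median scaling the calls on the whole array split unevenly, into 1327 higher and 79 lower for knockdown minus control, 1696 and 37 for Itgb3-17 minus control, 167 and 42 for Itgb3-20 minus control, and 0 and 2 for Itgb3-20 minus Itgb3-17.

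Calls of member probes were lost under some alternatives, and nothing is read from those that held. Cpa3, measured against controls that were not above background, lost its Itgb3-17 call with no background correction (0.14), no filter on dim probes (0.52), the authors' values (0.23) and trend and robust moderation (0.52). It also lost that call without Luc replicate 2 (0.46) or 3 (0.47) or Itgb3-17 replicate 1 (0.47), 2 (0.49) or 3 (0.61), and its Itgb3-20 call under median scaling (0.83) and without Itgb3-20 replicate 4 (0.74). With no filter Prf1 lost its calls for knockdown (0.98), Itgb3-17 (0.90) and Itgb3-20 (1.05). The Itgb3-17 call of Prf1 was also lost without Luc replicate 1 (0.62) or Itgb3-17 replicate 1 (0.90) or 2 (0.79), and its Itgb3-20 call without Luc replicate 1 (0.78) or Itgb3-20 replicate 4 (0.68). The Prg2 call with Itgb3-17 was lost under median scaling (-0.70), and that between the hairpins under median scaling (1.23) and with no filter (1.51). By overlap alone, 3 of 7 probes lay above all controls on all 5 knockdown arrays and 1 below, against 11.5% and 8.87% of all probes fitted. For Itgb3-17 the counts were 3 above and 3 below, against 18.7% and 14.3%, and for Itgb3-20 5 and 1, against 20.7% and 17.1%. Itgb3-20 lay above Itgb3-17 without overlap for 4 probes and below for 0, against 13.9% and 15%. Cpa3 and Mcpt8 passed the filter only through the knockdown arrays, and the genes were chosen on these differences, so nothing is read from these counts either.

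The genes with the most similar profiles over the 8 arrays were found by root mean square distance between log2 levels, each centred on its own mean. Closest to Prg2 were Fam162a (0.223), Cox6a2 (0.238) and Rab29 (0.267), where the median distance of all genes was 0.69. For Prf1 they were Nxf1 (0.164), Micall2 (0.171) and Ifngr2 (0.172), with a median of 0.595. For Cpa3 they were Mgst2 (0.0911), Nudt6 (0.0941) and Ndufs7 (0.101), with a median of 0.417. The Epx probe was not above background on 4 of the 8 arrays and the Mcpt8 probe on 5, so their distances rest largely on background values. Epx was nearest to Ddx39b (0.0579), Hmgn2 (0.0656) and Ovca2 (0.075), and Mcpt8 to Mapkapk3 (0.0388), Trappc12 (0.0524) and Prelid1 (0.0552). The Hdc probes had different neighbours, Slc31a1 (0.0786), Slc4a3 (0.0788) and Asph (0.0935) for the first, and Mrpl35 (0.0775), Nudt19 (0.098) and Fam8a1 (0.101) for the second.

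Mcpt8 and Gzmb lie in the same cluster of granule serine proteases on mouse chromosome 14, with 7 protein-coding genes between them. The 15 genes from Cma1 to Gzmb had 19 probes, of which 14 were not above background on any array. Ctsg, the neutrophil protease cathepsin G, was the sole gene of the cluster above background on all 8 arrays, and its knockdown difference was 0.25. Gzmd, granzyme D, was above background on 5 arrays and differed by -0.01.

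Over all lists 119 genes of 275 with a probe entered the fit, and 20 were called higher and 9 lower with knockdown (26 and 1 under median scaling), beside 9.46% higher and 8.25% lower of all genes fitted. Of the 20 higher, 7 were late granulocyte genes. Of 21 histamine and eicosanoid genes 7 entered, and 2 were called higher and 2 lower with a median of 0.246. Mgst2, a microsomal glutathione transferase that can make leukotriene C4, rose by 0.71 ± 0.16 (SE, adjusted p = 0.00563, limma) and Alox5, the 5-lipoxygenase that starts leukotriene synthesis, by 0.67 ± 0.16 (adjusted p = 0.00935). For Alox5 the difference from control was 0.31 with Itgb3-17 (adjusted p = 0.291) and 1.04 with Itgb3-20 (adjusted p = 0.00472), and knockdown and control arrays overlapped. Alox5ap, its activating protein, fell by 0.51 ± 0.15 (adjusted p = 0.0246), while a second probe gave 0.03 (adjusted p = 0.926), and Tbxas1, thromboxane synthase, fell by 0.47 ± 0.15 (adjusted p = 0.0388), a call kept in 4 of 15 alternatives and lost without Luc replicate 1 or 2, any Itgb3-17 replicate or Itgb3-20 replicate 4 (adjusted p up to 0.145). Mgst2 kept its call in all 15. Alox5 lost it without Luc replicate 1 (adjusted p = 0.0527), and Alox5ap without Luc replicate 1 or 2 or Itgb3-17 replicate 1 or 2 (adjusted p up to 0.107).

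Of 30 regulators of eosinophils, basophils and mast cells 19 entered the fit, 3 were called higher and 1 lower, and the median was 0.0601. The transcription factor Lyl1 rose by 0.95 ± 0.16 (SE, adjusted p = 0.00109, limma), with its call kept in all 15 alternatives. Stat5a, which signals below interleukin 3 and 5 receptors, rose by 0.71 ± 0.17 (adjusted p = 0.00825; 0.0567 without Luc replicate 2). Cebpe, needed for secondary granules of neutrophils and eosinophils, rose by 0.51 ± 0.13 with its brightest probe (adjusted p = 0.0156), a call lost without Luc replicate 1 or 2 (adjusted p up to 0.0551), while its other probes gave -0.46, 0.35 and 0.05 and were not called. The brightest Cebpe probe differed by 0.26 with Itgb3-17 (adjusted p = 0.27) and 0.75 with Itgb3-20 (adjusted p = 0.0096). Xbp1, a secretory pathway factor that eosinophils need, fell by 0.46 ± 0.15 (adjusted p = 0.0392, kept in 8 of 15); the call was lost without Luc replicate 2 or 3, Itgb3-17 replicate 1 or 2 or Itgb3-20 replicate 4 (adjusted p up to 0.14).

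Of 27 cytokine receptor genes 17 entered, 2 were called higher and 0 lower, and the median was -0.0888. Ifngr2, the second chain of the interferon gamma receptor, rose by 1.00 ± 0.18 (SE, adjusted p = 0.0018, limma) with its brightest probe, while the others gave -0.36 and -0.07. The kinase Fes rose by 0.52 ± 0.15 (adjusted p = 0.0273, kept in 10 of 15), and lost its call without Luc replicate 2 or 3, Itgb3-17 replicate 3 or Itgb3-20 replicate 4 (adjusted p up to 0.127). Kit, the stem cell factor receptor, differed by -0.29 (adjusted p = 0.243).

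Of 30 genes that build and release granules 21 entered, 1 was called higher and 3 lower, and the median was 0.0316. Sdf2l1, an endoplasmic reticulum protein, fell by 0.95 ± 0.15 (SE, adjusted p = 0.000867, limma). Vamp3, a SNARE of endosomal vesicles, fell by 0.68 ± 0.14 (adjusted p = 0.00428), with its second probe at -0.88 (adjusted p = 0.00328). The brightest Vamp3 probe differed by -1.06 with Itgb3-17 (adjusted p = 0.00109) and -0.29 with Itgb3-20 (adjusted p = 0.319). The difference between the hairpins was not called for Alox5 (adjusted p = 0.108), Cebpe (adjusted p = 0.207) or Vamp3 (adjusted p = 0.0597). Lamp1, a lysosome and granule membrane protein, fell by 0.52 ± 0.14 (adjusted p = 0.019, kept in 11 of 15), and its call did not hold without Luc replicate 1 or 2 or Itgb3-20 replicate 5 (adjusted p up to 0.0741). All 3 of these calls were lost under median scaling. Stxbp2, the Munc18-2 protein that cytotoxic cells and mast cells need to release granules, rose by 0.53 ± 0.14 (adjusted p = 0.0148; 0.059 without Luc replicate 2). Ctsc, the peptidase that activates granzymes and neutrophil proteases, differed by -0.37 (adjusted p = 0.123).

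The granzyme inhibitor serpins had 3 genes in the fit out of 10, with 0 higher, 1 lower and a median of -0.00719. Serpinb1a, an inhibitor of neutrophil elastase and related proteases, fell by 0.62 ± 0.14 (SE, adjusted p = 0.00672, limma), a call lost under median scaling. For comparison, 3 primary granule genes were called higher and 1 lower of 13 in the fit (median 0.199), and 7 late granulocyte genes higher and 0 lower of 13 (median 0.687). By hairpin the gene backgrounds were 7.53% higher and 6.34% lower for Itgb3-17, 6.26% and 5.28% for Itgb3-20, and 0.33% and 0.342% for Itgb3-20 minus Itgb3-17. The eosinophil and cytotoxic lists had 0 calls in each of these, and the mast cell and basophil list 1 higher with Itgb3-17 and 0 otherwise. In the late granulocyte list 4 were higher and 0 lower with Itgb3-17 (median 0.206). With Itgb3-20 8 were higher and 0 lower (median 0.950), and between the hairpins 4 were higher with Itgb3-20 and 0 lower.

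**Figure D4:**
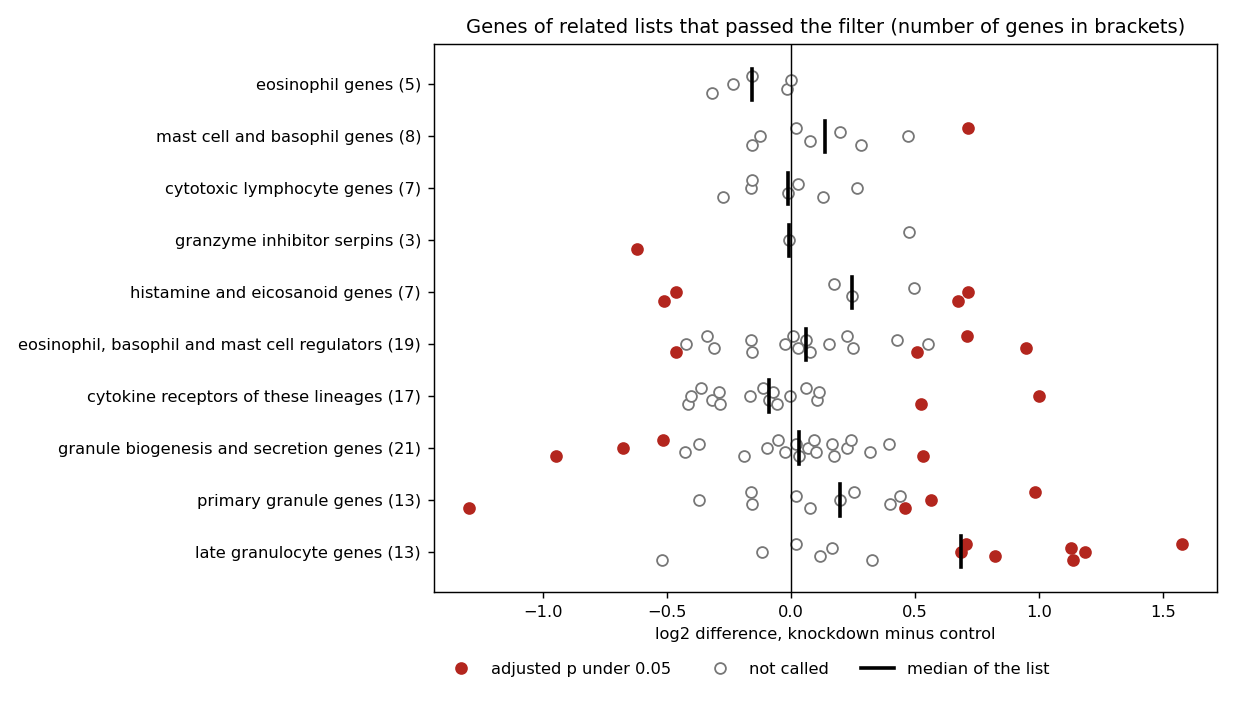
Knockdown minus control (horizontal axis, log2) for the genes of 10 lists that entered the fit, a point per gene by its brightest probe, with the number of genes in brackets. Filled red points were called at an adjusted p under 0.05 and black bars are list medians; the eosinophil and cytotoxic lists have no call, and the late granulocyte list has 7, all higher.

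On the whole arrays, 20.5% to 26.2% of probes were above background and median signals ran from 91.2 to 102. The first principal component held 42.1% of the variance and set the controls (-30.2 to -19.8) apart from the knockdown arrays (8.01 to 26.9). The Itgb3 probe was not above background on any array, so the arrays do not check the knockdown. Of the sort gate, Kit, Fcgr2b and Fcgr3 were above background on all arrays and Cd34 on 1.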

How the data were processed

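Illumina bead arrays measured 8 samples, in 3 groups taken from the sample titles. Probe signals were deposited as linear bead intensity averages that are not normalized, per the file headers. Each has a detection p-value deposited by the authors by a method that no label or header states. Processed log2 values of the same arrays were also deposited by the authors. They ranked the probes of each array as the signals do (Spearman 1), and every column had a median of 6.61. Their method, centring and any offset are unknown, and they served only as an alternative.

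Background was removed with normexp, for which neqc infers negative controls through the detection p-values, an offset of 16 was added, and values were quantile normalized and put on the log2 scale (limma 3.58.1, R 4.3.3). The fit took the 13315 of 45281 probes that reached a detection p under 0.05 on 2 or more arrays, and a gene was represented by its probe of highest mean over the 8 arrays (8189 genes). A limma model with 3 groups was fitted to all 8 arrays (lmFit and eBayes, two-sided), with Benjamini-Hochberg adjustment over all probes fitted and a threshold of 0.05. Knockdown minus control is the mean of both hairpin groups minus control. The number of arrays limits the precision.

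Symbols came from GEO's annotation of the array, in which 34885 probes had 1 symbol, 18 several and 10378 none. RefSeq tables of GRCm38.p6 gave promoters and gene neighbours; no probe sequences were used.

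The member genes and the gene lists were chosen with earlier results of these data known. Named were all probes of the members, in each list up to 5 called genes of lowest p or otherwise the gene of lowest p, genes called between the hairpins, a set of regulators and sort gate genes whatever their value, and the 3 nearest profiles of each member; of the lists outside the granule pathway, and of the sort gate genes, not all so selected are described. Other genes named were picked after their values were seen. Alternatives changed the background correction, the normalization, the filter, the starting values, the moderation, the grouping and the probe for a gene, left out each array, or blocked on the replicate number.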

Additional observations from a re-analysis of the deposited data

Results flagged for a closer look

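For Prg2 every Itgb3-17 array lay on the opposite side of the controls from every Itgb3-20 array, with Itgb3-20 minus Itgb3-17 at 1.51 on the log2 scale. The difference of Itgb3-20 from control, 0.36 at percentile 83.4 of all differences fitted, was not called. The Prg2 pattern is given as a description only, since it was known when the gene was chosen. Genes of the accompanying lists for which the difference between the hairpins passed the limma test were mostly granulocyte genes. Itgb3-20 minus Itgb3-17 was 0.94 for the lysozyme Lyz1 (adjusted p = 0.0302), 1.67 for S100a9 (adjusted p = 0.00622), 0.85 for S100a8 (adjusted p = 0.031), 1.00 for Pglyrp1 (adjusted p = 0.0179), 1.14 for Lyz2 (adjusted p = 0.0111) and 1.22 for the Fc receptor gene Fcgr3 (adjusted p = 0.0106), all higher with Itgb3-20. Calr, the chaperone calreticulin, was lower with Itgb3-20 by this measure, at -1.27 (adjusted p = 0.031). The calls of all 7 genes were lost under median scaling and with no filter on dim probes. All but S100a9 also lost theirs without at least 1 of the Itgb3-17 replicates or Itgb3-20 replicate 4, with adjusted p up to 0.116 for Lyz1, 0.136 for S100a8, 0.0956 for Pglyrp1, 0.0834 for Lyz2, 0.0766 for Fcgr3 and 0.19 for Calr. Calr fell short as well with the stricter filter and without Luc replicate 3, and its difference was -0.70 without Itgb3-20 replicate 4.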

How the results depend on the processing

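Counts of calls depended on the normalization, the filter and single arrays. For knockdown minus control, 2233 calls (53.2% higher) became 1406 under median scaling (1327 higher and 79 lower, 94.4% higher) and 1444 with no filter on dim probes, and lay between 1437 (without Luc replicate 2) and 2600 when an array was left out. For Itgb3-17 minus control, 1719 (56.0% higher) became 1040 with no filter and 1733 under median scaling (97.9% higher), and 743 to 2160 without an array. For Itgb3-20 minus control, 1462 (52.0% higher) became 209 under median scaling (79.9% higher) and 732 with no filter, and 388 to 1723 without an array. For Itgb3-20 minus Itgb3-17, 71 became 208 with no background correction, 2 under median scaling, 1 with no filter, 249 with the authors' values and 197 with trend and robust moderation, and 2 to 222 without an array. The gene list counts, 29 in all, became 19 with no filter and 27 under median scaling (26 higher and 1 lower), and 19 to 36 without an array. The causes were not tested. Of the member probes' differences 346 stayed within 1 SD of their replicates and 52 moved further; of the named list genes' values 626 kept direction and call, 105 lost the call and 6 gained it. With the replicate block, Itgb3-17 minus control gave 2306 calls. No label says that the replicate numbers pair the samples. Correlations of same-numbered arrays were 0.0279, -0.024 and -0.00589, which cannot settle it, so no call is read from the block. Cpa3, Mcpt8 and Epx lie near background, where signal limits what differences can be seen.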
